A study of Mus musculus with 32 samples.

Results

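The sarcomere and Z-disc genes described here are 39 of the 55401 genes counted in the series, and all 39 were found in the count tables by matching their Ensembl identifiers to GRCm38 gene symbols. They code for the actins, tropomyosins, troponins, myosin light chains and the proteins of the M-band and Z-disc, while the myosin heavy chains were left out. By the fibre type or stage in which each isoform is best known, 12 members were grouped as fast, 11 as slow, 4 as cardiac or embryonic and 12 as shared or other. Calf muscle (gastrocnemius and soleus), liver and hypothalamus came from C57BL/6 mice at 200 days of age, either controls (CTL) or mice with a skeletal muscle deletion of COX10 (COX10 KO), an assembly factor of cytochrome c oxidase. Muscle and liver each gave 6 CTL and 6 COX10 KO libraries, with 3 females and 3 males per group by the labels, and hypothalamus gave 4 and 4, all from males. In the COX10 KO mice a floxed Cox10 gene was removed by a Cre recombinase placed in the Myl1 locus, so that deletion follows the activity of that fast-fibre light chain gene, and the sources used here do not say which of these alleles the CTL mice carried. The study states that males alone were used unless noted, whereas the labels give both sexes for muscle and for liver. The question was which contractile isoforms differed in the myopathic muscle, and how much of its RNA they made up.

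A sarcomere shortens when the heads of thick filament myosin pull on thin filaments of actin, and calcium permits this by moving the troponin and tropomyosin that cover the actin. Titin and the M-band hold the thick filaments in register, and the Z-disc anchors the thin filaments through alpha-actinin. Most of these proteins come as a fast, a slow and a cardiac or embryonic isoform from separate genes, and adult calf muscle of the mouse is made mainly of fast fibres, with slow fibres concentrated in the soleus.

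Libraries were made by priming at the poly(A) tail, so that each transcript gives about 1 read whatever its length, and levels, given as CPM (counts per 1000000 of a library size scaled by trimmed mean of M values), can be compared between genes. Muscle libraries held 434494 to 11404800 counts. The shallowest, CTL 2, also stood apart in content, with 1648 CPM of the hepatocyte gene Alb against 6.04 to 232 CPM in the other 11. Cox10 itself was at 48.0 to 147 CPM in CTL and 95.1 to 140.1 CPM in COX10 KO muscle, but reads of the 3′ end need not come from the deleted part and so check no label. The labelled sex differed from the sex-linked transcripts in 2 CTL liver libraries and in no muscle library. No label says that libraries of 1 group came from separate mice, so the p-values measure the spread between these libraries, and intervals of counts would cover counting error only.

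In COX10 KO muscle all 4 cardiac or embryonic members rose, 8 of 12 fast members fell and 1 rose, 5 of 12 shared members fell, and none of the 11 slow members passed the test in either direction. The classes were set with earlier results of these data known, so these counts describe the classes and do not test them. Tnnc1, Myl2 and Myl3, which heart muscle also makes, were grouped as slow. In all, 5 of 39 members (12.8%) were higher and 13 (33.3%) lower at an adjusted p under 0.05 in edgeR's quasi-likelihood test with sex as a covariate, where 6.90% of the 11636 genes tested were higher and 7.43% lower. The median log2 fold change (COX10 KO over CTL) was 2.24 for the cardiac or embryonic, -1.02 for the fast, -0.71 for the shared and 0.03 for the slow members, and -0.03 over all genes tested. All 39 members passed the filter on low counts, and 21 were called in neither direction. Every COX10 KO library lay above every CTL library for 1 member (Myl4) and below for 2 (Actn3 and Mylk2), against 4.08% and 2.31% of all genes tested. Permuting genotype over the CPM values (exact, two-sided) gave p = 0.00216 for these 3, a value that complete separation of 6 from 6 fixes, and from 0.00433 (Myl1, Myom2 and Mylk4) to 0.0498 (Mybph) for the other 15 called members, not adjusted over members.

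The calls differ in how far they rest on single libraries. Actc1, Tnnt2, Myl4, Myom2, Actn3, Myl1, Mylk2, Mylk4 and Myoz3 were called whichever of the 12 libraries was left out. The number of lower members was 13 with all libraries, 17 without CTL 2, 5 without any 1 of CTL 3, CTL 6, KO 1, KO 2, KO 5 or KO 6, 6 without CTL 5 and 7 without KO 3. The lower calls over all genes moved too, from 865 to 913 without CTL 2 and to 431 to 657 without any other library named here. The highest adjusted p of the affected calls is given with each gene. With library totals in place of scaled library sizes, 5 members were higher and 11 lower, but the split of all called genes moved from 803 higher and 865 lower to 1220 higher and 473 lower, and the median of all genes from -0.03 to 0.17 on the log2 scale. Under those totals the median of the fast members was -0.82, that of the slow members 0.24 and that of the cardiac or embryonic members 2.43.

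**Figure D1:**
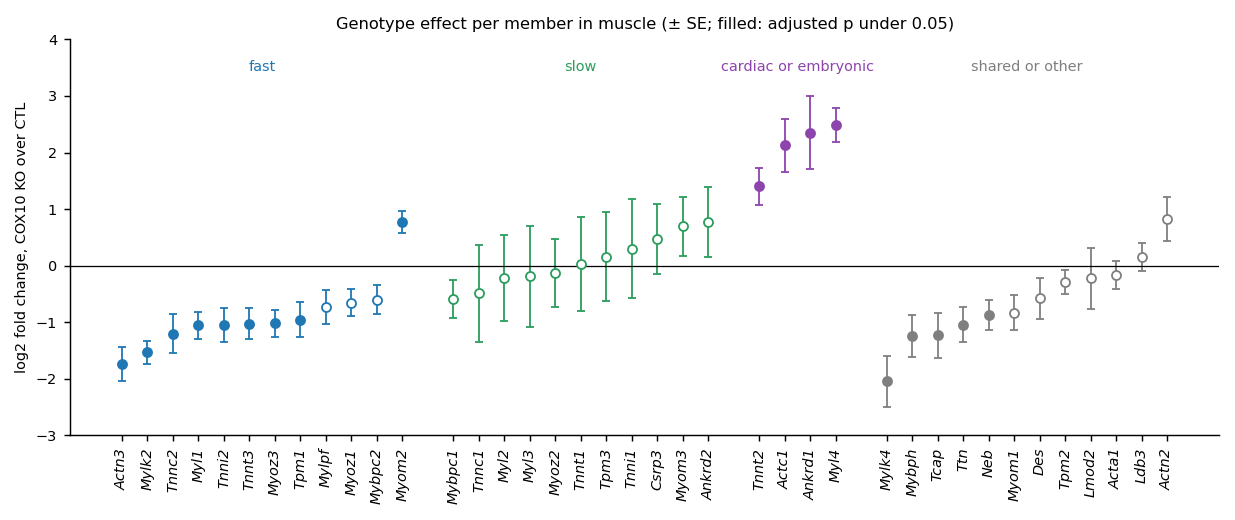
Log2 fold change of each of the 39 members in muscle, COX10 KO over CTL, with its standard error, grouped by isoform class. Filled points passed an adjusted p under 0.05. Of the 12 fast members 11 lie below 0, the 4 cardiac or embryonic members lie between 1.40 and 2.49, and the 11 open slow points lie between -0.59 and 0.77.

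The members took up a large part of the muscle library. Their share of all counts, with no scaling, was 9.86 to 20.2% (median 17.5%) in CTL and 9.12 to 15.5% (median 11.7%) in COX10 KO muscle, or 16.5% ± 3.80 and 11.9% ± 2.08 (mean ± SD, n = 6 each). All 6 COX10 KO libraries lay below the CTL median, and 4 CTL libraries lay above every COX10 KO library, while the shallow CTL 2 had the lowest CTL share. Without CTL 2 the CTL mean was 17.9%. Fast members made up the larger part of the gap, at 5.44 to 12.5% (median 10.3%) of counts in CTL and 4.32 to 7.68% (median 5.41%) in COX10 KO muscle. Shared members held 4.24 to 7.58% (median 6.32%) and 4.15 to 7.12% (median 5.62%), with overlapping groups. Slow members held 0.0884 to 1.65% (median 0.169%) and 0.163 to 0.682% (median 0.409%). Cardiac or embryonic members were the smallest class by median, at 0.0208 to 0.0961% (median 0.0612%) in CTL and 0.0539 to 0.504% (median 0.253%) in COX10 KO muscle, and only KO 5 lay inside the CTL range. Most of this class share was Actc1, with a median of 0.0513% in CTL and 0.220% in COX10 KO muscle. Acta1 alone took 2.48 to 4.46% (median 3.75%) of CTL and 2.57 to 5.16% (median 3.57%) of COX10 KO counts, the largest share of any member by median in both groups. These shares are a description without a test, and in such bulk samples fewer fibres of a type and less RNA per fibre cannot be told apart.

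**Figure D2:**
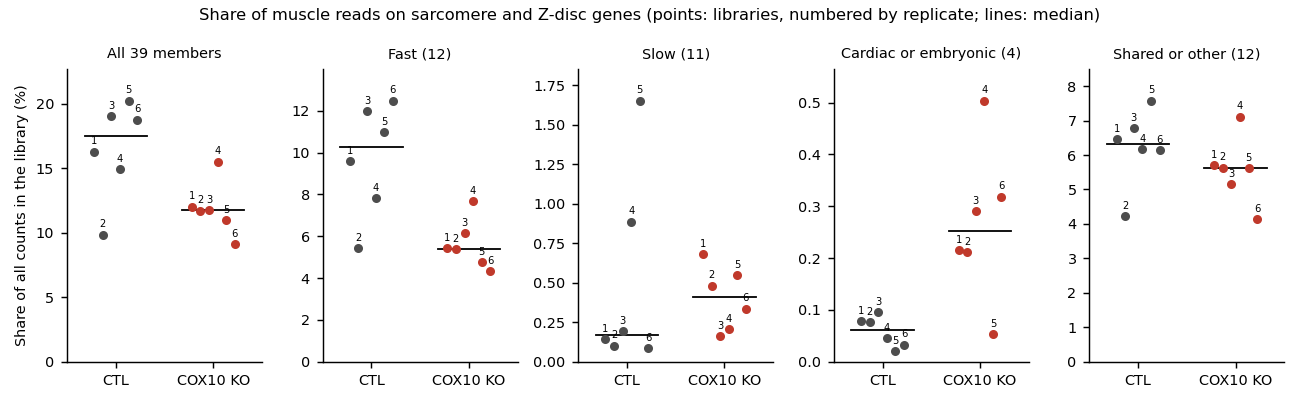
Share of all counts of each muscle library on the 39 members and on each isoform class, in percent on linear axes from 0, with a point per library numbered by replicate and a line at the group median. COX10 KO libraries sit at 9.12 to 15.5% for all members, against 9.86 to 20.2% in CTL, and CTL 4 and CTL 5 stand above the other CTL libraries in the slow panel.

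The 4 cardiac or embryonic members are isoforms of the heart, of developing muscle or of stressed fibres. Actc1 (chr2:114047282-114053548), the cardiac alpha-actin that developing skeletal muscle also makes, measured 206, 496 and 1022 CPM in CTL and 401, 2049 and 4917 CPM in COX10 KO muscle (lowest, median and highest of 6). KO 5 lay within the CTL range and the other 5 COX10 KO libraries above it, for a log2 fold change of 2.13 (SE 0.47, adjusted p = 0.00825). Myl4 (chr11:104550663-104595753), the atrial and embryonic alkali light chain, measured 2.26, 5.46 and 7.41 CPM in CTL and 16.1, 29.8 and 42.8 CPM in COX10 KO muscle. The groups did not overlap, and its log2 fold change of 2.49 (SE 0.30, adjusted p = 1.02e-04) was the largest rise among the members, although its level in COX10 KO muscle stayed under 1% of that of Myl1 in each library. The CTL values of Myl4 rest on 4 to 36 counts per library.

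Tnnt2, the cardiac and embryonic troponin T, measured 3.27, 6.36 and 16.6 CPM in CTL and 12.9, 16.6 and 25.5 CPM in COX10 KO muscle. The CTL values rest on 6 to 73 counts per library. Of the COX10 KO libraries 3 lay above every CTL library, CTL 2 being the highest control on 9 counts, and the log2 fold change was 1.40 (SE 0.32, adjusted p = 0.0101). With libraries thinned to at most 1734571 counts it was 1.07 and no longer called (adjusted p = 0.0535). Ankrd1, a stretch-responsive ankyrin repeat protein that binds titin, measured 10.9, 39.9 and 174 CPM in CTL and 24.5, 281 and 429 CPM in COX10 KO muscle. It was uneven in both groups: KO 4 and KO 5 were at 24.5 and 29.7 CPM, under the CTL median, while the other 4 lay above every CTL library, and CTL 1 at 174 CPM was far above the other controls. Its log2 fold change was 2.35 (SE 0.64, adjusted p = 0.0242), and the adjusted p rose to as much as 0.0776 without KO 6 and passed 0.05 also without CTL 3, CTL 5 or CTL 6 and with no sex term (adjusted p = 0.0576). Together 8 cardiomyocyte markers reached 3.82 to 105 CPM over the controls, against 42.1 to 109 CPM with COX10 deleted. Sln made up most of this except in CTL 2, where Myh6 was at 40.6 CPM, so the sum says little of the other markers. Among the controls Sln was at 102 CPM in CTL 4, 88.4 CPM in CTL 5 and 2.18 to 9.23 CPM in the rest. CTL 4 and CTL 5 were also the 2 highest controls for 10 of the 11 slow members. None of the 4 that passed the filter was called, but all 4 log2 fold changes were positive, with a median of 1.36. They were 0.48 for Myh6, 1.31 for Sln, 1.40 for Tnni3 and 2.04 for Mybpc3 (SE 0.82, adjusted p = 0.110). Below the filter, unscaled counts summed over the controls were 1 for Nppa, 13 for Ryr2 and 0 for Nppb and Myl7. The sums over COX10 KO libraries were 46 for Nppa, 41 for Ryr2, 1 for Nppb and 3 for Myl7.

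**Figure D3:**
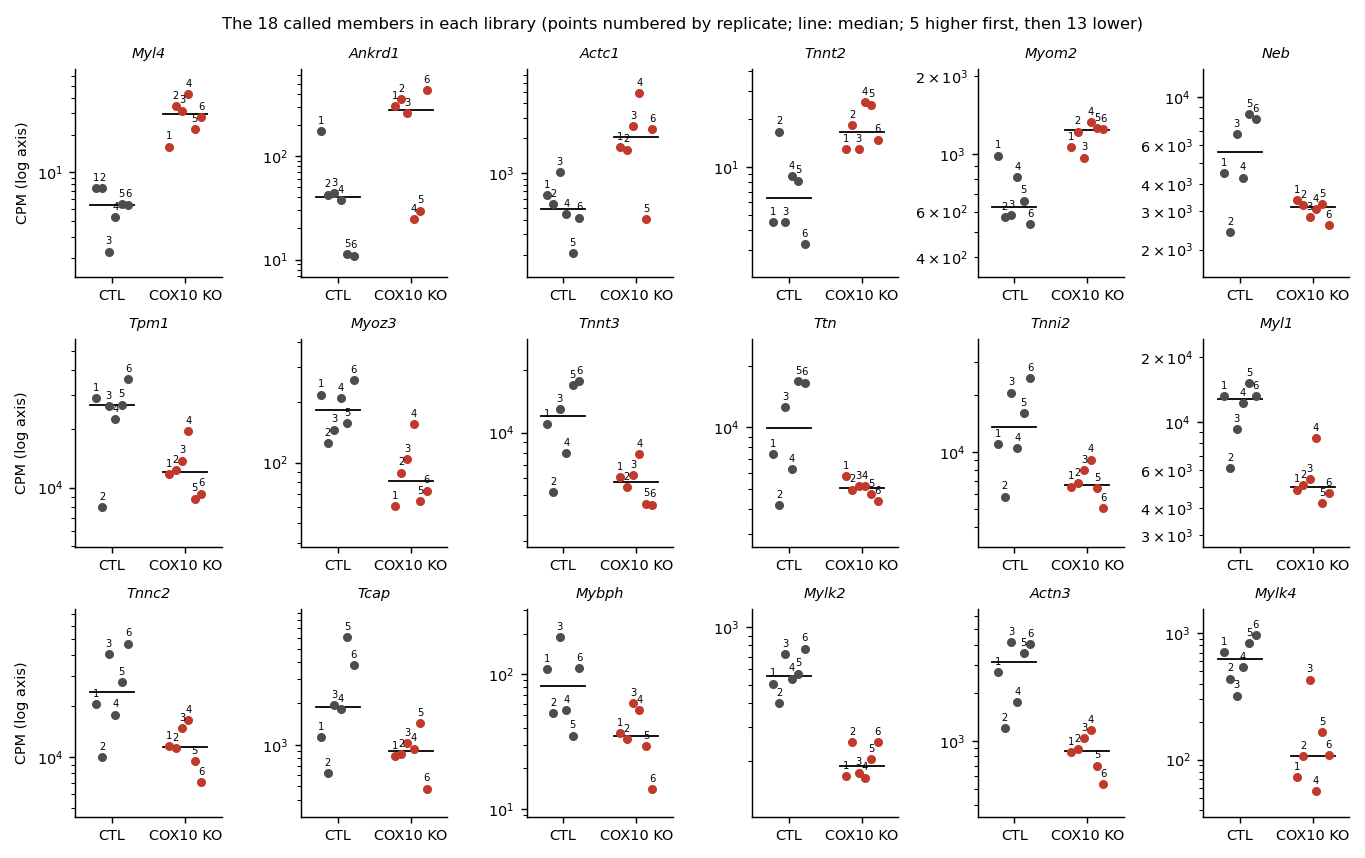
Level of the 18 called members in each muscle library, in CPM on a log axis, with points numbered by replicate and a line at the group median. The 5 members that were higher come first and the 13 lower ones follow. Only Myl4, Mylk2 and Actn3 show no overlap between groups, and CTL 2 is the lowest control for 11 of the 13 lower members.

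Troponin T, I and C form the calcium switch of the thin filament, and each fast subunit fell while the slow partner did not pass the test. Tnnt3, fast troponin T, ran from 5167 to 17671 CPM (median 11965) in CTL and from 4480.3 to 7861 CPM (median 5775) in COX10 KO muscle, with a log2 fold change of -1.02 (SE 0.28, adjusted p = 0.0243). Tnni2, the fast inhibitory subunit, ran from 5792 to 24566 CPM (median 13496) in CTL and from 5037 to 9098 CPM (median 6682) in COX10 KO muscle, with -1.06 (SE 0.30, adjusted p = 0.0287). Tnnc2, the fast calcium-binding subunit, ran from 9977 to 46818 CPM (median 24059) in CTL and from 7056 to 16418 CPM (median 11437) in COX10 KO muscle, with -1.20 (SE 0.34, adjusted p = 0.0283). In all 3 the groups overlapped because CTL 2 was within the COX10 KO range, and the adjusted p without 1 library reached 0.0882, 0.103 and 0.103, so that each call was lost without any 1 of CTL 3, CTL 5, CTL 6, KO 1, KO 2, KO 5 or KO 6 in turn and, for Tnni2, also without KO 3. Among the slow partners, Tnnt1 ran from 31.4 to 2099 CPM (median 194) in CTL and from 138 to 828 CPM (median 367) in COX10 KO muscle, with a log2 fold change of 0.03 (SE 0.83, adjusted p = 0.985). Tnni1 ran from 1.85 to 491 CPM (median 45.5) in CTL and from 38.0 to 251 CPM (median 119) in COX10 KO muscle, with 0.30 (SE 0.87, adjusted p = 0.864). Tnnc1, shared by slow and cardiac muscle, ran from 14.8 to 719.7 CPM (median 44.3) in CTL and from 26.7 to 176 CPM (median 67.9) in COX10 KO muscle, with -0.49 (SE 0.86, adjusted p = 0.756). The CTL range of each slow troponin enclosed its COX10 KO range.

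Among the other thin filament members, Tpm1, the main fast tropomyosin, ran from 7960.3 to 35995 CPM (median 26413) in CTL and from 8776 to 19494 CPM (median 12031) in COX10 KO muscle. It fell by 0.96 on the log2 scale (SE 0.31, adjusted p = 0.0483), a call that 9 of the 12 libraries could each undo when left out (all but CTL 2, CTL 4 and KO 4), with an adjusted p of at most 0.148. Neb, the giant protein that runs along the thin filament, fell by 0.88 (SE 0.26, adjusted p = 0.0356), from 2399 to 8367 CPM (median 5622) in CTL and from 2585 to 3363 CPM (median 3122) in COX10 KO muscle. Its groups overlapped only through CTL 2, and the call held only without CTL 2 or CTL 4, the adjusted p otherwise reaching 0.111. Tpm3, the slow tropomyosin, ran from 66.4 to 1934 CPM (median 166) in CTL and from 146 to 827 CPM (median 378) in COX10 KO muscle, with a log2 fold change of 0.16 (SE 0.78, adjusted p = 0.922). Tpm2, the beta-tropomyosin of both fibre types, gave -0.29 (SE 0.22, adjusted p = 0.393), and Lmod2, a leiomodin that lengthens thin filaments, gave -0.23 (SE 0.54, adjusted p = 0.827). Neither passed the test.

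Acta1 (chr8:123891769-123894751), the alpha-actin of adult skeletal muscle, measured 19866, 42298 and 47312 CPM in CTL and 23196, 34232 and 51290.3 CPM in COX10 KO muscle. Its groups overlapped and its log2 fold change was -0.16 (SE 0.25, adjusted p = 0.711), which turned to 0.03 with library totals, whereas its cardiac counterpart Actc1 rose. The 2 genes code for near-identical proteins, and whether any reads were common to both was not measured. Their promoters are shown because the pair diverged: the 120 bases before each RefSeq start site (GRCm38.p6, minus strand, Actc1 at chr2:114052876-114052995 and Acta1 at chr8:123894776-123894895), 5′ to 3′, with matches to a CArG box (the site of serum response factor) or to TATAAA in capitals.
Actc1: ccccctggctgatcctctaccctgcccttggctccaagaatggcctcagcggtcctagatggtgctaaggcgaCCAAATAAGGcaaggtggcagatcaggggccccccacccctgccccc
Acta1: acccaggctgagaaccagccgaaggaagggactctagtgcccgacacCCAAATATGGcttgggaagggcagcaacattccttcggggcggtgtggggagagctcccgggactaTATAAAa
Both hold a CArG box, which was found in the 250 bases before the start of 5 of the 30 members in the promoter table (16.7%) and of 1.47% of all 32851 promoters there. A member counted once, on a match in any of its promoters, while the share of all is per promoter. Some members have more than 1 promoter, which favours the member share. Besides Actc1, all members with this match were uncalled (Acta1, Myl3, Ldb3 and Myom1), and none of the 6 lower members in the table had it.

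Of the 10 thick filament members, 4 fell (40%, against 7.43% of all genes tested) and 1, Myl4, rose (10%, against 6.90%). Mylk4, a muscle kinase of the myosin light chain kinase family, measured 320.4, 622 and 965 CPM in CTL and 56.6, 108 and 429 CPM in COX10 KO muscle. KO 3 at 429 CPM was within the CTL range and the other 5 lay below it, and the log2 fold change of -2.05 (SE 0.46, adjusted p = 0.00836) was the largest fall among the members. Mylk2, the skeletal muscle myosin light chain kinase, measured 402, 555 and 771 CPM in CTL and 165, 189.6 and 252 CPM in COX10 KO muscle. All 6 COX10 KO libraries lay below every CTL library, with a log2 fold change of -1.53 (SE 0.20, adjusted p = 2.22e-04). Mybph, a myosin binding protein H, ran from 35.1 to 189 CPM (median 81.7) in CTL and from 14.0 to 61.1 CPM (median 34.9) in COX10 KO muscle, with a log2 fold change of -1.24 (SE 0.37, adjusted p = 0.0326). Its call was lost without any 1 of CTL 1, CTL 3, CTL 6 and 5 of the COX10 KO libraries (all but KO 4), with an adjusted p up to 0.111, and with library totals (adjusted p = 0.0505).

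Myl1 (chr1:66924295-66945404), the fast alkali light chain, measured 6104, 12741 and 15124 CPM in CTL and 4232, 4981 and 8423 CPM in COX10 KO muscle. Of the COX10 KO libraries, 5 of 6 lay below all CTL libraries, KO 4 at 8423 CPM being the exception. Its fall of 1.06 on the log2 scale (SE 0.24, adjusted p = 0.00836) was close in size to those of Tnni2 and Tnnt3, but because the Cre sits in this gene, its allele and the loss of COX10 cannot be told apart. The regulatory light chain of fast fibres, Mylpf, ran from 4187 to 14687 CPM (median 8709) in CTL and from 4084 to 8204 CPM (median 4997) in COX10 KO muscle, with -0.73 (SE 0.30, adjusted p = 0.120). Mybpc2, the fast myosin binding protein C, ran from 987 to 3125 CPM (median 2506) in CTL and from 1128 to 1901 CPM (median 1492) in COX10 KO muscle, with -0.60 (SE 0.26, adjusted p = 0.131). Both missed the threshold, though both were called lower without CTL 2, at an adjusted p of 0.0463 and 0.0279. Of the slow partners, Myl3 (shared with the ventricle) ran from 114 to 8716 CPM (median 471) in CTL and from 447 to 1809 CPM (median 1001) in COX10 KO muscle, with -0.19 (SE 0.89, adjusted p = 0.918). Myl2, the slow and ventricular regulatory chain, ran from 59.0 to 2343 CPM (median 229.6) in CTL and from 133 to 724 CPM (median 309) in COX10 KO muscle, with -0.22 (SE 0.76, adjusted p = 0.888). Mybpc1, the slow myosin binding protein C, ran from 159.9 to 521 CPM (median 336) in CTL and from 63.8 to 355 CPM (median 248) in COX10 KO muscle, with -0.59 (SE 0.34, adjusted p = 0.265). None of these 3 passed the test.

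The bases before the start sites of Myl1 and Mylk4 are shown as the promoters of the Cre-bearing gene and of the member that fell most (120 bases, GRCm38.p6, minus strand, chr1:66945057-66945176 and chr13:32783965-32784084), with TATAAA on either strand or a match to the MEF2 site in capitals.
Myl1: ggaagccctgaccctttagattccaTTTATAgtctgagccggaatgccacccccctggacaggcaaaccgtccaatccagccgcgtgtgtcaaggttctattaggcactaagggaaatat
Mylk4: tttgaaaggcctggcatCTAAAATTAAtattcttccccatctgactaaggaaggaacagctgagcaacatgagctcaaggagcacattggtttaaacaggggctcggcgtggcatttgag
Counted as for the CArG box, TATAAA on either strand was found before 6 of the 30 members (20%) and 12.4% of all promoters. The MEF2 site, which can contain TATAAA, was found before 4 members (13.3%) and 2.92% of all. MEF2 matches lay before Ttn and Mylk4, which fell, and before Myoz2 and Myom3, which were not called. The E-box CAGCTG, the same on both strands, was before 13 members (43.3%) and 13% of all promoters, in 1 of 4 higher, 3 of 6 lower and 9 of 20 uncalled members.

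In the M-band and along titin the members went different ways. Myom2, the M-band protein of fast fibres and the only fast member that rose, measured 538, 622 and 987 CPM in CTL and 969, 1234 and 1325 CPM in COX10 KO muscle. KO 3 was just under CTL 1, the highest control, and the other 5 lay above it, with a log2 fold change of 0.76 (SE 0.19, adjusted p = 0.0175). Ttn, the molecular spring between Z-disc and M-band, ran from 4168 to 16859.8 CPM (median 9980.4) in CTL and from 4359 to 5769 CPM (median 5051) in COX10 KO muscle. The log2 fold change was -1.04 (SE 0.30, adjusted p = 0.0317), and the call held only without CTL 1, CTL 2 or CTL 4, with an adjusted p up to 0.102 otherwise. Myom1, present in all fibres, gave -0.84 (SE 0.31, adjusted p = 0.0827), and it was called lower without CTL 2 (adjusted p = 0.0217) or without CTL 4 (adjusted p = 0.0385). Myom3, the slow-fibre myomesin, ran from 20.3 to 381 CPM (median 63.6) in CTL and from 85.4 to 271 CPM (median 177) in COX10 KO muscle, with 0.70 (SE 0.52, adjusted p = 0.395).

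Of the 11 Z-disc members, 3 fell (27.3%, against 7.43% of all genes tested), Ankrd1 rose (9.09%, against 6.90%) and 7 were not called. Actn3 (chr19:4861216-4877909), the fast-fibre alpha-actinin that crosslinks thin filaments, measured 1209, 3115 and 4154 CPM in CTL and 537, 869 and 1174 CPM in COX10 KO muscle. All COX10 KO libraries lay below all CTL libraries, by a small margin to CTL 2, for a log2 fold change of -1.74 (SE 0.30, adjusted p = 0.00177). Actn2, the alpha-actinin of all fibres, ran from 185 to 1059 CPM (median 317) in CTL and from 552 to 1012 CPM (median 798) in COX10 KO muscle, with 0.83 (SE 0.38, adjusted p = 0.162). It did not pass the test, and CTL 5 at 1059 CPM was above every COX10 KO library.

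Myoz3, a fast-fibre myozenin that tethers calcineurin at the Z-disc, ran from 125 to 257 CPM (median 184) in CTL and from 60.9 to 155 CPM (median 80.8) in COX10 KO muscle. It fell by 1.02 on the log2 scale (SE 0.24, adjusted p = 0.0123), and only KO 4 lay within the CTL range. The other fast myozenin, Myoz1, ran from 1168 to 2907 CPM (median 2542) in CTL and from 1064 to 2179 CPM (median 1428) in COX10 KO muscle, with -0.66 (SE 0.24, adjusted p = 0.0753), and was called lower without CTL 2 (adjusted p = 0.0198) or without KO 4 (adjusted p = 0.0470). Its slow counterpart Myoz2 ran from 20.3 to 334 CPM (median 86.1) in CTL and from 33.9 to 243 CPM (median 111) in COX10 KO muscle, with -0.14 (SE 0.60, adjusted p = 0.913). Tcap, the cap of titin at the Z-disc, ran from 624 to 6032 CPM (median 1875) in CTL and from 481 to 1441 CPM (median 897) in COX10 KO muscle. The log2 fold change was -1.24 (SE 0.40, adjusted p = 0.0484), and leaving out any library but CTL 1, CTL 2 or CTL 4 ended the call, at an adjusted p of up to 0.119, as did library totals (adjusted p = 0.0662). Ldb3 gave 0.15 (SE 0.25, adjusted p = 0.729) and Des, the desmin of the filaments between Z-discs, gave -0.58 (SE 0.36, adjusted p = 0.299). The slow and stretch-related Csrp3 and Ankrd2 gave 0.47 (SE 0.62, adjusted p = 0.662) and 0.77 (SE 0.61, adjusted p = 0.430), and none of these 4 was called.

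Slow members varied more between libraries than between genotypes. The ratio of the highest to the lowest of 6 libraries had a median of 30.8 over the 11 slow members in CTL and 5.57 in COX10 KO muscle, against 3.29 and 2.00 for the 12 fast members. In 10 of 11 slow members CTL 4 and CTL 5 were the 2 highest controls, the exception being Mybpc1. The lowest control was CTL 2 for every slow member but Mybpc1, for which it was CTL 6. CTL 2 is the shallowest library, and it held from 1 count (Tnni1) to 62 counts (Myl3) of those members. The CTL ratios therefore rest in part on few counts in 1 library. Tnnt1, for example, was at 1093 CPM in CTL 4 and 2099 CPM in CTL 5 but at 189, 31.4, 200.2 and 92.8 CPM in the other controls. In COX10 KO muscle KO 1 was the highest library for 8 of these genes and KO 3 the lowest for 9. The calf samples held both gastrocnemius and soleus, and the part that their proportion had in this spread was not tested.

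**Figure D4:**
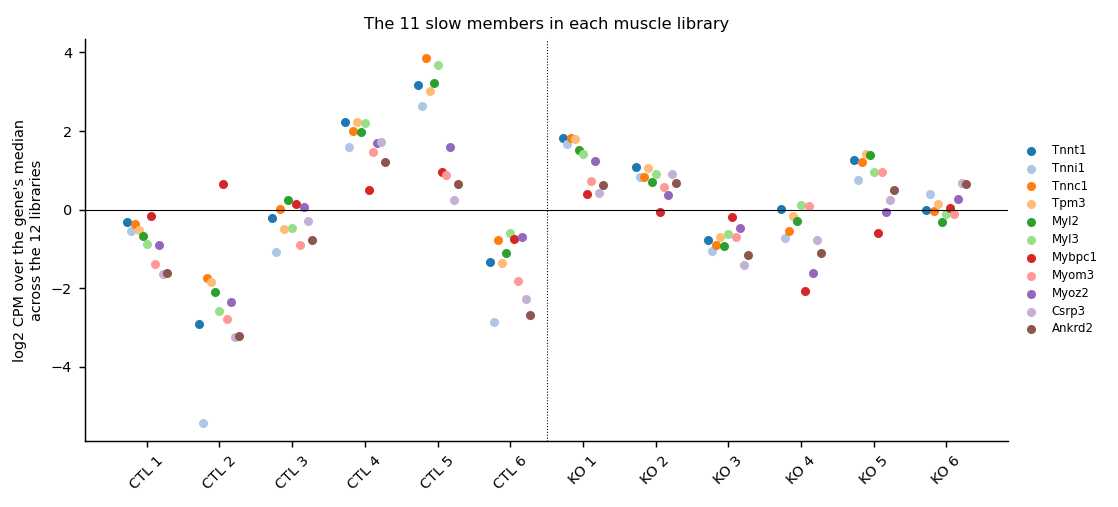
Level of the 11 slow members in each of the 12 muscle libraries, as log2 CPM over the gene's own median across libraries, with a colour per gene. The points of CTL 4 and CTL 5 lie above the median for all 11 genes and those of CTL 2 below it for 10, Mybpc1 being the exception.

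The same spread entered the comparison of the sexes, since CTL 4 and CTL 5 are labelled male, as is CTL 6, which was low. No member had a genotype effect that differed between females and males after adjustment: edgeR called none of 12065 genes, 459 of which (3.80%) had an unadjusted p under 0.05, and no member was called by DESeq2 either. At an unadjusted p under 0.05 there were 9 members, 8 of them slow and the other Tcap, and all 9 had a lower log2 fold change in males. Myl3 had the largest difference (males minus females), -4.03 (SE 1.09, unadjusted p = 0.00201), followed by Tnnc1 with -3.70 (SE 1.19, unadjusted p = 0.00682). All 11 slow members had a negative difference, and the adjusted p of each member was close to 1.

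Shares within isoform families, taken from raw counts and free of library scaling, set these genes against each other. Actn2 made up 4.85 to 35.4% (median 11.3%) of alpha-actinin counts in CTL and 34.7 to 59.1% (median 50.6%) in COX10 KO muscle, and Actn3 was the main form in every control. Only CTL 4 overlapped the COX10 KO range. Actc1 made up 0.518 to 2.68% (median 1.19%) of alpha-actin counts in CTL and 1.28 to 9.39% (median 5.83%) in COX10 KO muscle, with KO 5 in the CTL range. Within the alkali light chains Myl4 held 0.0229 to 0.119% (median 0.0340%) and 0.241 to 0.539% (median 0.493%), without overlap, while Myl3 held 1.84 to 36.6% (median 4.17%) and 7.53 to 27.0% (median 15.8%). Slow Tnnt1 held 0.522 to 12.02% (median 1.61%) of troponin T in CTL and 2.17 to 11.9% (median 6.63%) in COX10 KO muscle, and cardiac Tnnt2 0.0184 to 0.318% (median 0.0416%) and 0.186 to 0.480% (median 0.310%). Tnni1 and Tnnc1 stayed at or under 3.69% of their families in all 12 libraries. Myom2 made up 35.4 to 71.4% (median 46.3%) of myomesin counts in CTL, with CTL 1 and CTL 2 at the top, and 66.1 to 76.0% (median 70.3%) in COX10 KO muscle. Myl2 held 0.800 to 19.5% (median 2.10%) of the regulatory light chains and 1.94 to 13.6% (median 6.35%), Tpm3 0.235 to 5.70% (median 0.572%) and 0.888 to 5.24% (median 2.69%) of the tropomyosins, Mybpc1 4.87 to 29.8% (median 13.4%) and 3.25 to 20.2% (median 13.9%) of the myosin binding proteins C, and Myoz2 1.54 to 11.6% (median 3.11%) and 1.43 to 14.7% (median 7.25%) of the myozenins, all with overlapping groups.

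**Figure D5:**
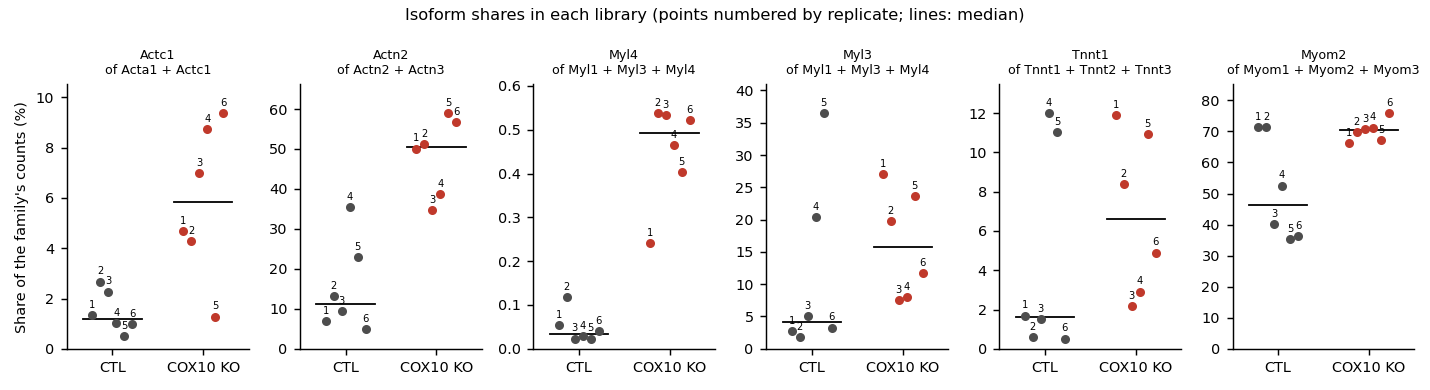
Share of an isoform in the summed counts of its family in each muscle library, in percent on linear axes from 0, with a line at the group median. Actn2 stands at 34.7 to 59.1% in COX10 KO muscle against 4.85 to 35.4% in CTL, and the Myl4 groups are apart, whereas Myl3 and Tnnt1 overlap widely.

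Of 34 other Z-disc, M-band and thin filament genes, 32 passed the filter, 2 rose (6.25%, against 6.90% of all genes tested) and 5 fell (15.6%, against 7.43%; median log2 fold change -0.32). Cfl2, the muscle cofilin that severs actin filaments, rose by 0.70 (SE 0.20, adjusted p = 0.0275) and Flnc, the muscle filamin, by 1.03 (SE 0.30, adjusted p = 0.0314) on the log2 scale. Synm, the intermediate filament protein synemin, changed by -1.74 (SE 0.27, adjusted p = 7.57e-04) and Fhl3, a LIM domain protein, by -1.75 (SE 0.32, adjusted p = 0.00237). Of 17 assembly and chaperone genes 4 fell (23.5%) and none rose, led by Smtnl2 with -1.88 (SE 0.26, adjusted p = 2.69e-04) and Klhl31 with -1.52 (SE 0.25, adjusted p = 0.00127).

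Marker genes of other cell types and fibre states were counted beside the members. Of 10 skeletal muscle fibre markers, among them fast-fibre genes such as Myh4 and Pvalb, 7 fell (70%, against 7.43% of all genes tested) and none rose. Those with the smallest p were Pvalb at a log2 fold change of -1.30 (SE 0.31, adjusted p = 0.0126) and Cacna1s at -1.02 (SE 0.27, adjusted p = 0.0207). Ckm (adjusted p = 0.0516), Mb (adjusted p = 0.334) and Eno3 (adjusted p = 0.556) were not called. The summed level of the 10 markers was 45193 to 130251 CPM in CTL and 35076 to 61881 CPM in COX10 KO muscle. Of 7 markers of satellite cells, myoblasts and immature fibres tested, 5 rose (71.4%, against 6.90% of all genes tested), with sums of 35.1 to 60.6 and 264 to 391 CPM. Myh8, a heavy chain of immature fibres, rose by 4.74 (SE 0.33, adjusted p = 5.64e-07) and Myog by 4.01 (SE 0.29, adjusted p = 7.32e-07). The satellite cell and myoblast genes Pax7 (0.01, adjusted p = 0.995) and Myod1 (-0.12, adjusted p = 0.863) were not called. Of 8 macrophage markers tested 3 rose (37.5%, against 6.90% of all genes tested), Cd68 by 3.79 (SE 0.28, adjusted p = 7.51e-07) and C1qa by 0.83 (SE 0.26, adjusted p = 0.0409), with sums of 120.03 to 380.1 and 231 to 538 CPM. The other 5 were not called, among them Adgre1 at 0.36 (adjusted p = 0.610) and Csf1r at 0.34 (adjusted p = 0.518). Fibroblast and neuron markers each had 1 lower call (Col1a2 and Syt1). Smooth muscle, endothelial, Schwann cell, adipocyte, erythrocyte and hepatocyte markers had none. The part of these cells in the members' changes was not tested.

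Outside muscle the members were at low levels and took 0.0121 to 0.0976% of liver counts and 0.0373 to 0.0433% of hypothalamus counts. In liver 9 members passed the filter and none was called by edgeR (0.0927% of 9707 genes were called), although Neb alone had an unadjusted p under 0.05 (1 member), and none was called by DESeq2. Of the libraries, 2 stood apart: KO 6 held Acta1 at 289.5 CPM and the highest level of 26 of the 39 members, and KO 4 held Acta1 at 46.3 CPM, against 0 to 16.4 CPM in the other 10, and without these 2 libraries no member was called either. In hypothalamus 14 members passed and none was called by edgeR or DESeq2 (0% of 13504 genes were called by edgeR). None reached an unadjusted p under 0.05 in this fit, which had no replicate term although same-numbered libraries were correlated there. With the replicate number as a block, edgeR called 2 of all genes and 0 members. Over all genes, 1260 then had an unadjusted p under 0.05, against 211 without the block.

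The annotation places the 39 members on 16 chromosomes. In GENCODE vM21 no exon of a member is shared with another gene on the same strand, but 11 members, among them Tnnc2, Myl4, Mybph, Ttn and Neb, overlap an exon of a gene on the opposite strand. The strand setting of the counting is not given in the sources used here, so reads of such a partner cannot be told apart from those of the member.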

How the data were processed

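Calf muscle, liver and hypothalamus RNA was sequenced with a 3′ mRNA kit. The authors trimmed reads (BBDuk), mapped them with STAR 2.5.0a to GRCm38.p6 and summed reads by gene in HTSeq 0.6.1 (versions from the submitters' processing notes), and the deposited values are raw counts per gene, whole numbers, with no normalization and no pooling. The annotation release and the strand setting are not given in the sources used here. Of 55401 identifiers, 55141 matched a GENCODE vM21 symbol once the version suffix was dropped (54349 with it), and all 39 members matched 1 identifier each. No row without a gene was present and no 2 libraries were identical. Total counts were 434494 to 11404800 per library in muscle, 674311 to 16044634 in liver and 3526613 to 22321322 in hypothalamus, and shallower libraries give less precise values.

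Counts were tested per tissue with edgeR 4.0.16 (R 4.3.3) by its quasi-likelihood F test of the genotype term (two-sided), after filterByExpr on the design and TMM scaling. Sex entered as a covariate except in hypothalamus. Calls required an adjusted p (Benjamini-Hochberg, over all genes tested) under 0.05. Standard errors came from the F statistic. The sexes were compared through an interaction of genotype and sex. CPM are counts over the TMM-scaled library size, and exact permutation tests were two-sided (Python 3.11.15, scipy 1.17.1). Shares of counts were not tested. Fits were tested on simulated counts with known changes. Figures were drawn with matplotlib 3.10.9.

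The 39 members, their classes and the other gene lists were chosen with earlier results of these data known. By rule, all members are accounted for, with the range and median of CPM for called members and for both partners of fast and slow pairs. From each other list with calls, up to 2 genes with the smallest p in each direction are named, in some lists with uncalled genes beside them. Cox10 and Myl1 were planned as label checks. Reads of Cox10 check no label, and the Cre allele in Myl1 cannot be told apart from the loss of COX10. Alternatives were DESeq2 1.42.0, relative log expression factors, library totals, TMM factors without the members, no filter, at least 10 counts in every library, no sex term, the replicate number as a block, libraries thinned to at most 1734571 counts (CTL 2 stays shallower), either sex on its own, and leaving out every library in turn. Leaving out the liver libraries KO 4 and KO 6 together was added after seeing the data. Whether numbers pair libraries was checked by correlating deviations from the group means. In muscle the correlation of same-numbered libraries was -0.15 to 0.13 and in liver -0.32 to 0.20, so the number does not pair them. In hypothalamus it was 0.20 to 0.81, and the block is given there. Promoters are from RefSeq (GRCm38.p6) and held 30 of the 39 members (the others are Tnni2, Myoz3, Myoz1, Tcap, Neb, Mylk2, Tnnt3, Myom2 and Actn3). The CArG box and the MEF2 site were searched by their consensus, the first being the same on both strands and the second read on both.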

Additional observations from a re-analysis of the deposited data

Results flagged for a closer look

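Within each group, the highest and lowest library of every member in muscle, and of the members' share of counts in each tissue, was compared with its neighbours by Dixon's ratio. Of 84 groups, 9 held a library that stood apart at the 95% level, where chance gives about 1 in 20.

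Single CTL libraries stood high for 5 members. Tnnc1 was at 719.7 CPM and Myl3 at 8716 CPM in CTL 5, where the other 5 controls lay at 14.8 to 199 CPM and 114 to 3159 CPM. Lmod2 in CTL 5 was at 249 CPM (others 9.23 to 68.2), Csrp3 in CTL 4 at 512 CPM (others 16.6 to 184) and Ankrd1 in CTL 1 at 174 CPM (others 10.9 to 43.8).

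Acta1 in CTL 2, the shallowest muscle library, was at 19866 CPM, below the 39535 to 47312 CPM of the other controls. In COX10 KO muscle, Myl1 in KO 4 was at 8423 CPM (others 4232 to 5454) and Mylk4 in KO 3 at 429 CPM (others 56.6 to 164). In liver, KO 6 had 0.0976% of its counts on the members, against 0.0121 to 0.0439% in the other COX10 KO libraries.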

How the results depend on the processing

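No called member changed sign under any of the 23 alternatives in muscle. The counts of called members moved as follows. The higher members were 8 with no filter (Actn2 and the slow Myom3 and Ankrd2 in addition), 3 with at least 10 counts in every library (where Myl4 and Tnnt2 were not tested), 2 in females alone and 1 in males alone. The lower members were 5 with the replicate number as a block, although the number does not pair these libraries, 1 in females alone, 3 in males alone and 5 to 17 with 1 library left out. Over all genes, 803 higher and 865 lower in the fit as reported, the calls were 525 and 479 under the block, 1220 and 473 with library totals, 563 and 548 with at least 10 counts in every library, 163 and 134 in females alone, 157 and 124 in males alone, and 482 to 996 and 431 to 1056 with 1 library left out. DESeq2 gave 5 higher and 15 lower members. Each sex alone leaves 3 libraries against 3. In liver 4 members were called with no filter (Tnnc2, Myl1 and Mybpc2 higher, Neb lower) and 0 under the other alternatives. KO 6 held 233 counts of Tnnc2, 140 of Myl1 and 48 of Mybpc2, where no other liver library held more than 24 of any of them. The fit with no filter was not repeated without KO 4 and KO 6. In hypothalamus the replicate block gave 0 called members, as did every other alternative run. The share of counts on members was 22.01% in CTL and 15.6% in COX10 KO muscle without mitochondrial DNA-encoded genes in the total. The cause of these changes was not tested.

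The sign changed for 12 uncalled members, all slow but Acta1 and Lmod2. With library totals the log2 fold change was 0.0013 for Lmod2, 0.031 for Acta1, 0.012 for Myl3 and 0.074 for Myoz2. The replicate block gave 0.0044 for Myl2, 0.036 for Myoz2 and 0.17 for Myl3, and no sex term gave -0.46 for Tpm3, -0.24 for Tnni1 and -0.58 for Tnnt1. Females alone gave 1.82 for Myl3, 1.26 for Myl2, 0.75 for Lmod2, 1.22 for Myoz2 and 1.39 for Tnnc1. Males alone gave -0.28 for Myom3, -1.48 for Tpm3, -0.46 for Csrp3, -1.65 for Tnnt1, -1.35 for Tnni1 and -0.20 for Ankrd2. With 1 library left out the values ran from -0.43 to 0.57 for Tnnt1, -0.13 to 0.88 for Tnni1, -0.93 to 0.34 for Tnnc1, -0.24 to 0.66 for Tpm3, -0.59 to 0.39 for Myl2, -0.74 to 0.51 for Myl3, -0.46 to 0.25 for Myoz2 and -0.48 to 0.39 for Lmod2. Depth limits the low members most in CTL 2, the library with 434494 counts.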

Other observations

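In hypothalamus 3 libraries stood apart in cardiac isoforms, whatever their genotype. Actc1 was at 9.81 CPM in CTL 2, 12.4 CPM in KO 1 and 10.8 CPM in KO 2, against 0 to 0.730 CPM in the other 5 libraries. Myl3 was at 6.83, 6.29 and 6.11 CPM in the same 3 libraries and at 0.177 to 1.46 CPM in the others. The atrial and ventricular heavy chain gene Myh6 stood with them, at 4.27, 7.38 and 5.00 CPM against 0 to 0.892 CPM. By contrast Tpm1, the most abundant member in this tissue, varied from 169 to 220 CPM over all 8 libraries.

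In liver, KO 6 held high levels of members of more than 1 class. Beside the shared Acta1 it had Ttn at 45.2 CPM and Ldb3 at 27.0 CPM, where the 10 libraries other than KO 4 and KO 6 held at most 3.21 and 1.28 CPM. Among fast members it had Tnnc2 at 81.7 CPM, Tnni2 at 51.5 CPM, Tnnt3 at 49.8 CPM and Myl1 at 49.1 CPM, where the same 10 libraries held at most 6.55, 4.09, 2.69 and 1.70 CPM. Counts were found there for 38 of 39 members, against 16 in KO 3, the shallowest liver library. Tpm1 and Tpm3 were present in every liver library, from 27.9 to 165 CPM and from 22.9 to 71.5 CPM.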
